A study of Mus musculus with 8 samples.

Results

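Kinesins are motor proteins that use ATP to walk along microtubules or to take microtubule ends apart. In neurons the transport kinesins carry vesicles, mitochondria and receptors along axons and dendrites, working through light chains and adaptor proteins that bind the cargo. Mitotic kinesins build and move the spindle and the midzone of dividing cells, and ciliary kinesins serve the assembly or beating of cilia or the signalling that passes through them. The genes described here were chosen by name: every array probe whose RefSeq accession belongs to a mouse gene with a symbol of Kif followed by a number. They were 37 genes read by 54 probes, out of 32585 genes or transcripts and 39429 probes on the array. By role, 15 were transport kinesins, 10 mitotic, 6 ciliary, 5 of other or unclear role and 1 a pseudogene, Kif4-ps. The genes Kif14 and Kif28 were not analysed here.

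RNA came from dissociated mouse hippocampal neurons that received a lentivirus on day 10 in culture and were harvested 6 days later. In 4 samples the virus expressed Flag-Nr4a1, that is, the orphan nuclear receptor Nr4a1 with an epitope tag, and in the other 4 it expressed GFP; the sources used here do not give the promoter of the transgene or the strain and age of the animals. Each sample was labelled with Cy5 and hybridised with a Universal Mouse Reference RNA labelled with Cy3 on a 2-colour Agilent array, and its level is the log2 ratio of sample over reference. The labels join 1 array of each group in each of 4 pairs, with replicate 4 forming batch 2. Whether replicates came from separate cultures is not stated, so the p-values reflect a spread among samples that may be technical. Values are listed below in the order of replicates 1 to 4.

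The labelled cell type was checked by its markers: all 6 neuron markers were measured, their summed ratio was 212 to 244 in GFP-labelled and 207 to 241 in Nr4a1-labelled arrays, and 0 of 6 passed the limma test (2 were lower at an unadjusted p under 0.05). The Nr4a1 probe itself did not separate the groups. Among GFP-labelled arrays it read -2.06, -2.12, -1.90 and -2.49, and among Nr4a1-labelled arrays -1.32, -2.49, -1.20 and -2.37. The difference was 0.30 ± 0.15 (SE, n = 4 pairs; limma adjusted p = 0.196), higher in 3 of 4 pairs, so the groups are named below by their labels. Slide 1 held all 4 GFP-labelled arrays and no other, slide 2 held 3 Nr4a1-labelled arrays and slide 3 the fourth, so slide and group cannot be told apart.

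Most mitotic kinesins matched to a promoter share letters there that the other kinesins mostly lack. These stretches are shown because the tested mitotic kinesins, with or without the letters, are compared as a group below. The cell cycle genes homology region (CHR) is a promoter element with the letters TTTGAA, through which the DREAM and MuvB complexes are known to time cell cycle genes. RefSeq promoter windows of the GRCm38.p6 assembly, from 250 bases before to 50 after each start, were matched to 30 of the 37 kinesin genes (34 windows). TTTGAA or its reverse complement TTCAAA stood in a window of 8 of 9 mitotic kinesin genes, against 1 of 11 transport, 1 of 5 ciliary and 1 of 5 other kinesins and 17.9% of all 32851 promoter windows. The exception among the mitotic genes was Kif18a. Capitals mark the match in 26 bases around it, written 5′ to 3′ on the gene's strand, for Kif11 (chr19:37376353-37376378, plus), Kif15 (chr9:122951052-122951077, plus), Kif18b (chr11:102925106-102925131, minus), Kif20b (chr19:34922355-34922380, plus), Kif22 (chr7:127042422-127042447, minus), Kif23 (chr9:61946782-61946807, minus), Kif2c (chr4:117178860-117178885, minus) and Kif4 (chrX:100626074-100626099, plus).
Kif11: gtctccatttTTCAAAattgaggcgc
Kif15: gggcgccaaaTTCAAAtctgcggcca
Kif18b: gaccggctagTTTGAAcgcgccgcgc
Kif20b: gccgccattgTTTGAATTTGAAaacc
Kif22: gccccggtaaTTCAAAagagagaagc
Kif23: gattggcctgTTTGAAatgcgccggg
Kif2c: aggctgctctTTCAAAcctgagtaat
Kif4: ctgggatcaaTTTGAAacttggcggt

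CCAAT, the box bound by the factor NF-Y, or its reverse complement ATTGG, was found for 5 of the 9 mitotic, 3 of 11 transport, 3 of 5 ciliary and 2 of 5 other kinesin genes, against 37.4% of all windows. The Kif11 promoter carries both sets of letters, and 150 bases of it (chr19:37376232-37376381, plus) are shown with ATTGG and TTCAAA in capitals.
Kif11 upstream: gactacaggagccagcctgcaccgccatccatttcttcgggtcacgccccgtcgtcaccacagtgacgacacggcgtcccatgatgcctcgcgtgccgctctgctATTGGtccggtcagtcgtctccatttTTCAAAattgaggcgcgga

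The letters AAAGGTCA, known as the NBRE, to which Nr4a1 is known to bind as a monomer, or their reverse complement TGACCTTT, stood in 1.51% of all windows and, among the kinesins, in the window of Kif6 alone. These matches describe the letters in these windows and are not evidence that a factor binds there.

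Of the 37 kinesins, 32 were bright enough to be tested (Cy5 well above background on at least 4 of 8 arrays), and 13 of them passed the test at an adjusted p under 0.05. 7 rose in the Nr4a1-labelled arrays: the transport kinesins Kif5b and Kif16b, the mitotic Kif11, Kif20a, Kif20b and Kif2c, and the ciliary Kif27. 6 fell: the transport kinesins Kif17, Kif21b, Kif3b and Kif3c, the ciliary Kif9, and Kif26b. The share called was 40.6% of kinesins, against 24.4% of all 21116 features, and by direction 21.9% against 12.8% for rises and 18.8% against 11.5% for falls. The median difference was 0.08 on the log2 scale over the 32 kinesins and 0.00 over all features. All differences were small, the largest of the 13 being 1.54-fold. All 13 kept their sign in all 4 pairs, but they were selected by a test on these same pairs, so this adds no support. The groups of 4 arrays did not overlap for 8 of the 32, a share close to the 24.4% of all features. Kif11 and Kif27 were well above background on only 1 GFP-labelled array each, so they passed the brightness filter through the Nr4a1-labelled arrays; the other 30 tested kinesins gave 5 rises and 6 falls. In RNA from whole cultures, fewer cells of a type and less RNA per cell cannot be told apart. When slide was added as a random block, limma called 0 of 32 kinesins in either direction, and 0 had an unadjusted p under 0.05. No slide held both groups, so that fit cannot tell a group difference from a slide difference. With all spots kept in the background correction limma also called 0, with unadjusted p under 0.05 for 2 that were higher and 5 that were lower.

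**Figure D1:**
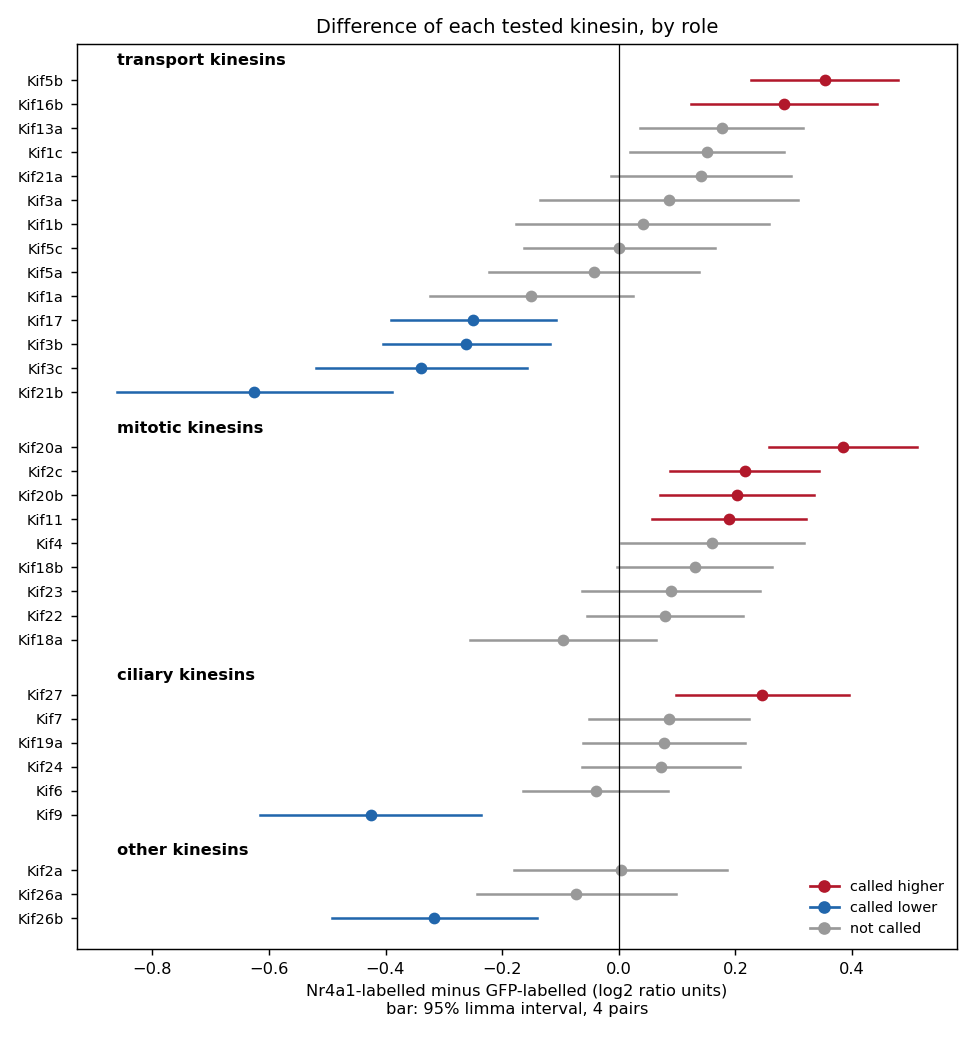
Log2 difference (Nr4a1-labelled minus GFP-labelled, n = 4 pairs) on the x axis for each of the 32 tested kinesins, grouped by role; points are the estimates, bars the 95% limma intervals, red marks called higher, blue called lower and grey not called. The 14 transport kinesins lie on both sides of 0, from -0.62 to 0.35, while 8 of the 9 mitotic ones lie above 0.

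Among the transport kinesins, 2 rose and 4 fell of 14 tested by limma (4 and 4 at an unadjusted p under 0.05). The called shares were 14.3% higher and 28.6% lower, against 12.8% and 11.5% of all features. Their median difference was 0.02. The direction of that median is not settled, since it was 0.12, -0.07, -0.17 and 0.16 in replicates 1 to 4. Of the falls, 1 was called with median centring and 1 with Agilent's own ratio, against 4 here. The neuron-enriched conventional motors did not pass the test. Kif5a, a neuron-enriched heavy chain of conventional kinesin, read 5.33, 5.25, 5.41 and 5.28 on GFP-labelled arrays and 5.45, 5.12, 5.11 and 5.42 on Nr4a1-labelled arrays. The groups overlapped, with replicates 1 and 4 higher in the Nr4a1-labelled array and replicates 2 and 3 lower. The difference was -0.04 ± 0.08 (SE, n = 4; 95% interval -0.22 to 0.14; limma adjusted p = 0.743). Kif5c, the other neuron-enriched heavy chain, showed the same split by replicate, with a difference of 0.00 (95% interval -0.16 to 0.17; limma adjusted p = 0.994). Kif1a, the motor of synaptic vesicle precursors, read 4.60, 4.47, 4.59 and 4.54 on GFP-labelled arrays and 4.45, 4.30, 4.21 and 4.64 on Nr4a1-labelled arrays. It was lower in 3 of 4 pairs and higher in replicate 4, and the groups overlapped. Its difference was -0.15 ± 0.08 (SE, n = 4; 95% interval -0.32 to 0.02; limma adjusted p = 0.197), an interval that holds both a modest decrease and no change.

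Kif5b, the heavy chain of conventional kinesin that most cell types make, rose where its neuronal relatives did not pass. It read 1.34, 1.38, 1.43 and 1.31 on GFP-labelled arrays and 1.71, 1.76, 1.72 and 1.68 on Nr4a1-labelled arrays. Every Nr4a1-labelled array lay above every GFP-labelled one, and the spread within each group was a small part of the gap between them. The difference was 0.35 ± 0.06 (SE, n = 4), or 1.28-fold (limma adjusted p = 0.00165), and 0.15, not called, with all spots kept in the background correction. Whether Kif5b moved differently from Kif5a or Kif5c was not tested. Kif16b, a motor of early endosomes, read -1.28, -1.22, -1.18 and -1.24 on GFP-labelled arrays and -0.86, -0.88, -1.13 and -0.92 on Nr4a1-labelled arrays. The groups did not overlap, although replicate 3 moved least. The difference was 0.28 ± 0.07 (SE, n = 4), or 1.22-fold (limma adjusted p = 0.0175).

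The 4 transport kinesins that fell included the largest difference in the family. Kif21b, a dendritic motor that also affects how microtubule ends grow, read 2.48, 2.49, 2.58 and 1.95 on GFP-labelled arrays and 2.06, 1.67, 1.60 and 1.67 on Nr4a1-labelled arrays. GFP-labelled replicate 4 was low and Nr4a1-labelled replicate 1 was high for their groups, so the groups overlapped although each pair fell. The difference was -0.62 ± 0.11 (SE, n = 4), or 1.54-fold lower (limma adjusted p = 0.00227), with -0.74 in batch 1 and -0.28 in batch 2. Its relative Kif21a gave 0.14 and did not pass (limma adjusted p = 0.169).

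Kif3c and Kif3b are motor subunits that each pair with Kif3a in the heterotrimeric kinesin-II of axons and, for Kif3b, cilia. Kif3c read 2.84, 2.84, 2.82 and 2.40 on GFP-labelled arrays and 2.43, 2.44, 2.30 and 2.37 on Nr4a1-labelled arrays. The first 3 GFP-labelled arrays lay clearly above all Nr4a1-labelled ones, and GFP-labelled replicate 4 lay among them. The difference was -0.34 ± 0.08 (SE, n = 4), or 1.26-fold lower (limma adjusted p = 0.0134), with -0.44 in batch 1, -0.03 in batch 2 and -0.18, not called, by the Cy5 channel alone. Kif3b read 1.33, 1.44, 1.38 and 1.18 on GFP-labelled arrays and 0.97, 1.23, 1.26 and 0.82 on Nr4a1-labelled arrays, groups that overlapped while all 4 pairs fell. The difference was -0.26 ± 0.06 (SE, n = 4; limma adjusted p = 0.0157), and -0.43 by the Cy5 channel alone. Their common partner Kif3a gave 0.09 and did not pass (limma adjusted p = 0.572), with replicate 1 at 0.53 and the other 3 pairs slightly below 0.

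Kif17, which carries vesicles with the NMDA receptor subunit GluN2B into dendrites, read 0.53, 0.49, 0.46 and 0.35 on GFP-labelled arrays. On Nr4a1-labelled arrays it read 0.12, 0.35, 0.24 and 0.13. The groups met without overlapping, the lowest GFP-labelled value being 0.349 and the highest Nr4a1-labelled value 0.347. The difference was -0.25 ± 0.06 (SE, n = 4), or 1.19-fold lower (limma adjusted p = 0.0182). The 5 remaining transport kinesins tested, Kif13a, Kif1b, Kif1c, Kif21a and Kif3a, gave 0.04 to 0.18 and did not pass.

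**Figure D2:**
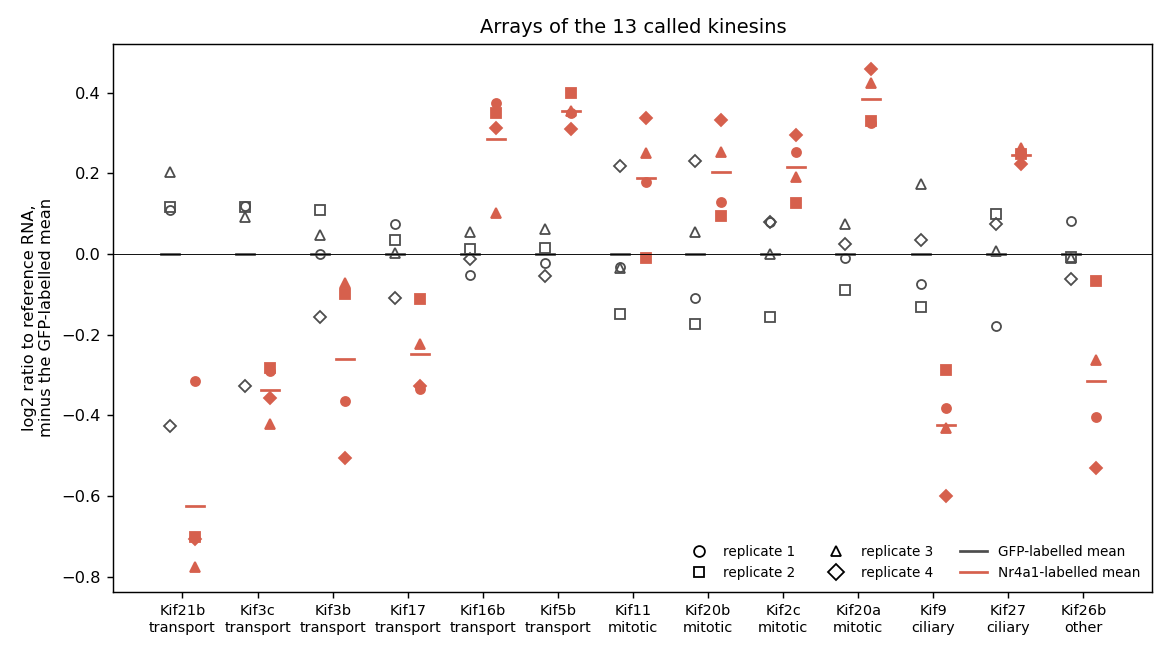
Each array of the 13 called kinesins, as the log2 ratio to reference RNA minus the gene's GFP-labelled mean (y axis); open grey symbols are GFP-labelled and filled red symbols Nr4a1-labelled arrays, symbol shape gives the replicate and short lines the group means (n = 4). Kif5b, Kif20a and Kif9 show a clear gap between the groups, while in Kif21b and Kif3c the GFP-labelled replicate 4 lies far below the other GFP-labelled arrays.

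All 9 mitotic kinesins tested lay below the reference, an RNA pooled from mouse cell lines, with GFP-labelled means of -4.71 to -1.80. In the Nr4a1-labelled arrays 4 of the 9 rose and 0 fell by limma (5 and 0 at an unadjusted p under 0.05), 8 of 9 estimates were above 0, and the median difference was 0.16. Among the 4, Kif11 was well above background on 1 GFP-labelled and 3 Nr4a1-labelled arrays, so it entered through the group where it is high. With a brightness filter on all 8 arrays, 3 of 8 mitotic kinesins were called higher. With no replicate block in the fit, 2 of the 9 were called higher, Kif20a and Kif2c. The medians in replicates 1 to 4 were 0.09, 0.27, 0.09 and 0.14. The summed ratio of the mitotic kinesins was 1.29 to 1.47 in GFP-labelled and 1.44 to 1.62 in Nr4a1-labelled arrays, ranges that overlapped. Beside these, markers of proliferating cells moved the same way: 5 of 8 rose and 0 fell by limma (7 and 0 at an unadjusted p under 0.05), and their summed ratio was 0.624 to 0.708 in GFP-labelled and 0.823 to 0.902 in Nr4a1-labelled arrays. Of 7 oligodendrocyte lineage markers, 5 rose and 1 fell, with summed ratios of 86.3 to 100 and 97.5 to 107, and of 6 astrocyte markers 2 rose and 0 fell by limma (3 and 1 at an unadjusted p under 0.05), with summed ratios of 184 to 208 and 188 to 216. These limma counts stand against 12.8% of all features called higher and 11.5% called lower. The part of these cell types in the mitotic kinesins was not tested.

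Kif20a (MKLP2), which brings the chromosomal passenger complex to the spindle midzone for cytokinesis, showed the clearest difference of the mitotic group. It read -3.55, -3.63, -3.47 and -3.51 on GFP-labelled arrays and -3.21, -3.21, -3.11 and -3.08 on Nr4a1-labelled arrays. The groups did not overlap, and the 4 pairs rose by similar amounts. The difference was 0.38 ± 0.06 (SE, n = 4), or 1.31-fold (limma adjusted p = 0.00104), and 0.20 when the Cy5 channel was used alone, still called. Kif2c (MCAK), which takes microtubule ends apart at kinetochores, read -2.88, -3.12, -2.96 and -2.88 on GFP-labelled arrays and -2.71, -2.84, -2.77 and -2.67 on Nr4a1-labelled arrays. All Nr4a1-labelled arrays were above all GFP-labelled ones. The difference was 0.22 ± 0.06 (SE, n = 4), or 1.16-fold (limma adjusted p = 0.0213), but 0.02 and not called by the Cy5 channel alone.

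Kif20b, another motor of late cytokinesis, read -4.82, -4.89, -4.66 and -4.48 on GFP-labelled arrays and -4.58, -4.62, -4.46 and -4.38 on Nr4a1-labelled arrays. The groups overlapped because GFP-labelled replicate 4 was high, although each pair rose. The difference was 0.20 ± 0.06 (SE, n = 4), or 1.15-fold (limma adjusted p = 0.0317), and 0.13, not called, by the Cy5 channel alone. Kif11 (Eg5), which slides spindle microtubules apart, read -2.66, -2.78, -2.66 and -2.41 on GFP-labelled arrays and -2.45, -2.64, -2.38 and -2.29 on Nr4a1-labelled arrays. These groups overlapped too, again with replicate 4 the highest GFP-labelled array. The difference was 0.19 ± 0.06 (SE, n = 4; limma adjusted p = 0.0427), and this call was lost under 12 of the 15 alternative settings in which Kif11 was tested. By Agilent's own ratio Kif11 gave 0.81, not called, and Kif20b 0.44. When all spots were kept, Kif11, Kif20b and Kif2c gave 0.59, 0.62 and 0.57, none called. Kif23 (MKLP1), the motor subunit of centralspindlin, read -2.84, -2.83, -2.93 and -2.86 on GFP-labelled arrays and -2.82, -2.53, -2.89 and -2.88 on Nr4a1-labelled arrays. Replicate 2 alone stood above the GFP-labelled range by a clear margin. The difference was 0.09 ± 0.07 (SE, n = 4; 95% interval -0.06 to 0.24; limma adjusted p = 0.384). The chromokinesins Kif4 and Kif22 gave 0.16 and 0.08, Kif18b gave 0.13 and Kif18a, which aligns chromosomes, gave -0.10, and none of these 4 passed.

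Of the 7 tested mitotic kinesins with a TTTGAA or TTCAAA window, Kif11, Kif20b and Kif2c rose and Kif18b, Kif22, Kif23 and Kif4 did not pass. Kif18a, whose window lacks these letters, gave -0.10 and did not pass either. As Kif18a alone lacked them among the tested members with a window, the letters cannot be compared with the calls. No promoter of Kif20a or Kif5b is shown here.

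Partners of the mitotic kinesins at the spindle and in cytokinesis moved as follows: 7 of 19 rose and 2 fell, with a median of 0.17. Their summed ratio went the other way, at 5.7 to 5.78 in GFP-labelled and 5.37 to 5.6 in Nr4a1-labelled arrays. Cep55, the member with the highest ratio, gave -0.15 and did not pass. Ect2, the exchange factor that centralspindlin brings to the midzone, rose by 0.67 (limma adjusted p = 5.81e-05). Birc5 (survivin), a subunit of the chromosomal passenger complex, rose by 0.53 (limma adjusted p = 0.000305). Cenpe, a kinetochore motor of the kinesin family under another name, rose by 0.53 (limma adjusted p = 0.000876). Anln (anillin), a scaffold of the contractile ring, fell by 0.64 (limma adjusted p = 5.09e-05). Of the 7 rises, Bub1 was well above background on 1 GFP-labelled and 4 Nr4a1-labelled arrays, so it passed the brightness filter through the group where it is high. This list shares Mki67 with the proliferation markers.

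Of the 6 ciliary kinesins, 1 rose and 1 fell, with a median of 0.07. Kif9, a motor of motile cilia and sperm flagella, read 1.03, 0.97, 1.27 and 1.13 on GFP-labelled arrays and 0.72, 0.81, 0.67 and 0.50 on Nr4a1-labelled arrays. The groups did not overlap, and replicates 3 and 4 fell most. The difference was -0.43 ± 0.08 (SE, n = 4), or 1.34-fold lower (limma adjusted p = 0.00546). Kif27, another gene of motile cilia, read 0.10, 0.37, 0.28 and 0.35 on GFP-labelled arrays and 0.52, 0.52, 0.54 and 0.50 on Nr4a1-labelled arrays. The groups did not overlap, and GFP-labelled replicate 1 was the lowest. The difference was 0.25 ± 0.07 (SE, n = 4; limma adjusted p = 0.023). The limit given above applies, as Kif27 was well above background in Cy5 on 1 GFP-labelled array. The Cy3 reference signal of Kif27 was well above background on only 1 array of both groups together, so its ratios rest on a dim reference. The size of the Kif27 difference varied with the setting, from 0.14, not called, with all spots kept to 1.12 by Agilent's own ratio. Kif7, a regulator of Hedgehog signalling at the ciliary tip, gave 0.09, Kif19a and Kif24, which act on ciliary length and assembly, gave 0.08 and 0.07, and Kif6 gave -0.04, and none of these passed. Beside them, markers of ependyma and motile cilia gave 2 rises and 1 fall of 5 tested, with summed ratios of 6.97 to 10.2 in GFP-labelled and 9.55 to 11.1 in Nr4a1-labelled arrays. The 6.97 was GFP-labelled replicate 4, where Foxj1 read 1.48, against 2.50, 2.56 and 2.59 on the other GFP-labelled arrays. Foxj1 did not pass (limma adjusted p = 0.495). Tmem212 of that list was not tested, and the part of such cells in the ciliary kinesins was not tested either.

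Genes of intraflagellar transport and ciliary signalling moved in both directions, with 5 of 18 higher and 5 lower and a median of 0.05. Dync2h1, the heavy chain of the dynein that returns cargo from the ciliary tip, rose by 0.86 (limma adjusted p = 7.37e-05). Ift80 rose by 0.65 (limma adjusted p = 0.000206), while Ift20 fell by 0.34 (limma adjusted p = 0.00292) and Ift57 fell by 0.33 (limma adjusted p = 0.00327). All 3 belong to the intraflagellar transport B complex.

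Of the 3 other kinesins tested, Kif26b, an atypical member without ATPase activity in its motor domain, fell. It read -0.33, -0.42, -0.42 and -0.47 on GFP-labelled arrays and -0.81, -0.47, -0.67 and -0.94 on Nr4a1-labelled arrays. Replicate 2 of the Nr4a1-labelled group lay next to the lowest GFP-labelled array and the other 3 lay well below, without overlap. The difference was -0.32 ± 0.08 (SE, n = 4; limma adjusted p = 0.0163). Its relative Kif26a, with Cy3 well above background on 0 of 8 arrays, gave -0.07. Kif2a, which shortens microtubules in growing axons, gave 0.00. The 5 kinesins that were not tested were dim: Kif12, Kif13b and Kif2b were well above background on 0 of 8 arrays, Kif15 on 1 and Kif4-ps on 3.

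Some kinesins were read by several probes. Whether differences between probes come from the stretch of transcript measured was not tested. Of 9 kinesins with more than 1 tested probe, 5 had all probes on the same side of 0. All 4 Kif9 probes passed as lower, with -0.35 to -0.51, in a fit that called 23.8% of all 25783 tested probes. Both probes of Kif3b passed, at -0.26 and -0.32, as did both of Kif17, at -0.25 and -0.19. The second probe of Kif2c gave 0.15 and did not pass. Kif1b, a motor of mitochondria and vesicle precursors depending on isoform, gave 0.04 at its brighter probe and 0.29 ± 0.06 (SE, n = 4; limma adjusted p = 0.00573 over all probes) at a probe for other RefSeq transcripts. The Kif1a probes gave -0.15 and 0.02, and those of Kif1c, Kif2a and Kif3a also differed in sign without any passing.

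**Figure D3:**
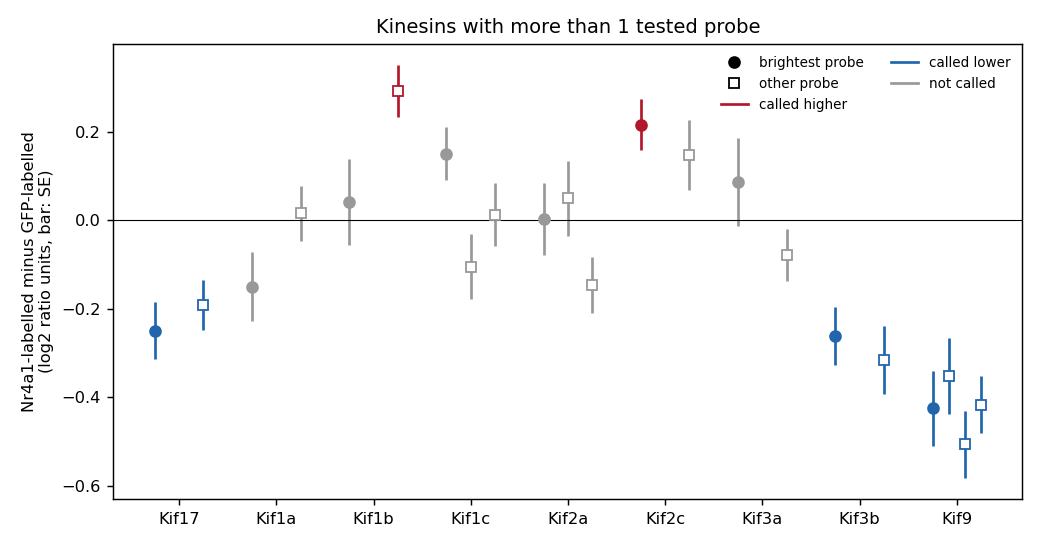
Log2 difference (y axis, bars are SE, n = 4 pairs) of each tested probe of the 9 kinesins with more than 1; filled circles are the brightest probe, which stands for the gene, and open squares the others, with red for called higher, blue for called lower and grey for not called. All Kif9, Kif17 and Kif3b probes are below 0 and called, while the Kif1b probes split between 0.04 and 0.29.

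The proteins that couple kinesins to cargo showed small changes. Of 12 light chains and adaptors, 1 rose and 3 fell, with a median of -0.03. Klc1, the main kinesin light chain of neurons, fell by 0.33 (limma adjusted p = 0.00363), with no overlap between groups. Mapk8ip1 (JIP1), a scaffold that joins kinesin-1 to cargo, fell by 0.37 (limma adjusted p = 0.00517) and Fez1, another adaptor of kinesin-1, fell by 0.19 (limma adjusted p = 0.0472). Spag9 (JIP4) rose by 0.23 (limma adjusted p = 0.048). The Klc1 difference was -0.09 and not called as the mean of all its tested probes, and its call was lost in 4 of the 16 alternative settings, that of Mapk8ip1 in 3, Spag9 in 9 and Fez1 in 10, all 4 fits without 1 replicate among them.

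Among 19 cargo linkers, 1 rose and 4 fell, with a median of -0.01. Sybu (syntabulin), which links Kif5b to syntaxin vesicles and mitochondria, fell by 0.44 (limma adjusted p = 0.000672). Hap1, a huntingtin partner that binds conventional kinesin, fell by 0.25 (limma adjusted p = 0.0142). Of the 4 liprins-alpha in the list, a family that binds Kif1a, Ppfia1 rose by 0.38 (limma adjusted p = 0.00254) and Ppfia2 fell by 0.23 (limma adjusted p = 0.0376), while Ppfia3 at 0.10 and Ppfia4 at -0.12 did not pass. The call of Ppfia2 was lost in 9 of the 16 alternative settings, and the difference of Sybu was -0.23 as the mean of all its tested probes.

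The opposing motor was measured by 23 genes of dynein and dynactin, of which 1 rose and 5 fell, with a median of -0.05. Dync1i1, the intermediate chain of neuronal dynein, fell by 0.27 (limma adjusted p = 0.013), Dynll1, a light chain, fell by 0.24 (limma adjusted p = 0.0126) and Dctn1, the large dynactin subunit, fell by 0.28 (limma adjusted p = 0.0206). Nde1, a dynein regulator used in dividing progenitors, rose by 0.31 (limma adjusted p = 0.00495). As the mean of all tested probes Nde1 gave 0.17 and Dync1i1 -0.17, neither called, and Dctn1 lost its call in 9 of the 16 settings. The minus-end kinesins Kifc1, Kifc2, Kifc3 and Kifc5b, whose names put them outside the rule, gave -0.10 to 0.12, and by limma 0 of 4 passed or had an unadjusted p under 0.05. All these counts stand against 12.8% of all features called higher and 11.5% called lower.

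**Figure D4:**
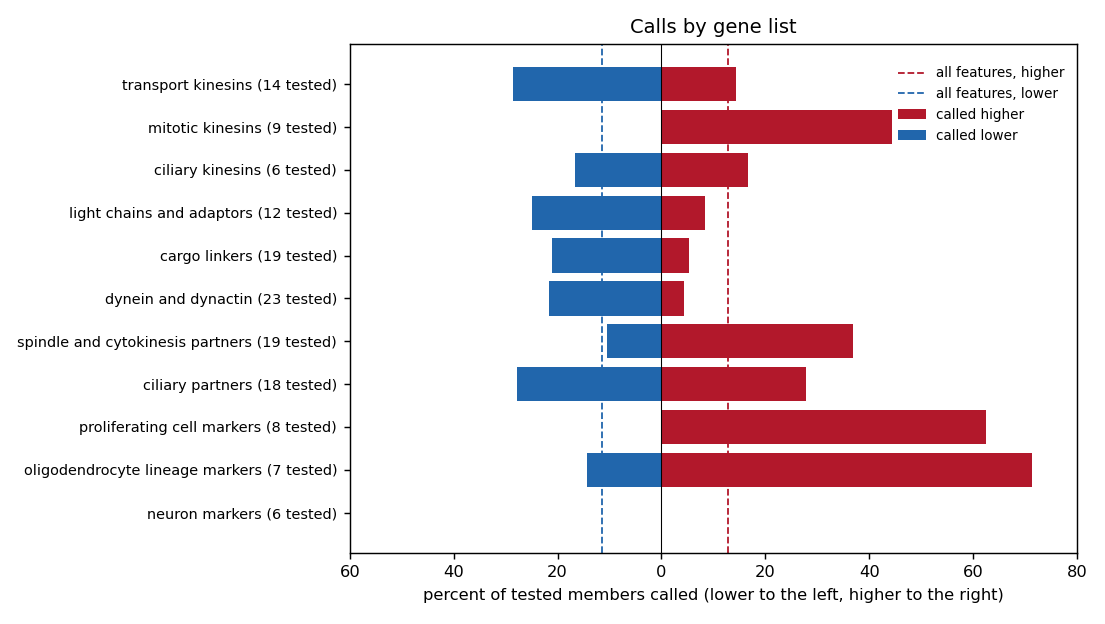
Percent of tested members called lower (blue, to the left of 0) and higher (red, to the right) for kinesins, their partners and selected cell type markers; dashed lines give the share of all 21116 features. The mitotic kinesins (44.4%) and proliferating cell markers (62.5%) have only red bars. Of the transport kinesins, 14.3% were called higher and 28.6% lower. The mitotic bar includes Kif11, which passed the brightness filter through the Nr4a1-labelled arrays.

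The sign of each of the 13 called kinesins held in every alternative setting in which it was tested, while the calls themselves varied. Kif11 and Kif27 were tested in 15 alternative settings and the other called kinesins in 16. Kif5b, Kif20a and Kif21b each lost their call in 2 settings only, namely slide as a random block and all spots kept in the background correction. Kif9 lost its call in 3 settings, Kif26b in 4 and Kif27 in 5. Kif16b and Kif17 lost theirs in 6, Kif3b and Kif3c in 7, and Kif20b and Kif2c in 8. Kif1a ranged from -0.23 to 0.19 and Kif5a from -0.14 to 0.07 over the settings, and neither passed in any.

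**Figure D5:**
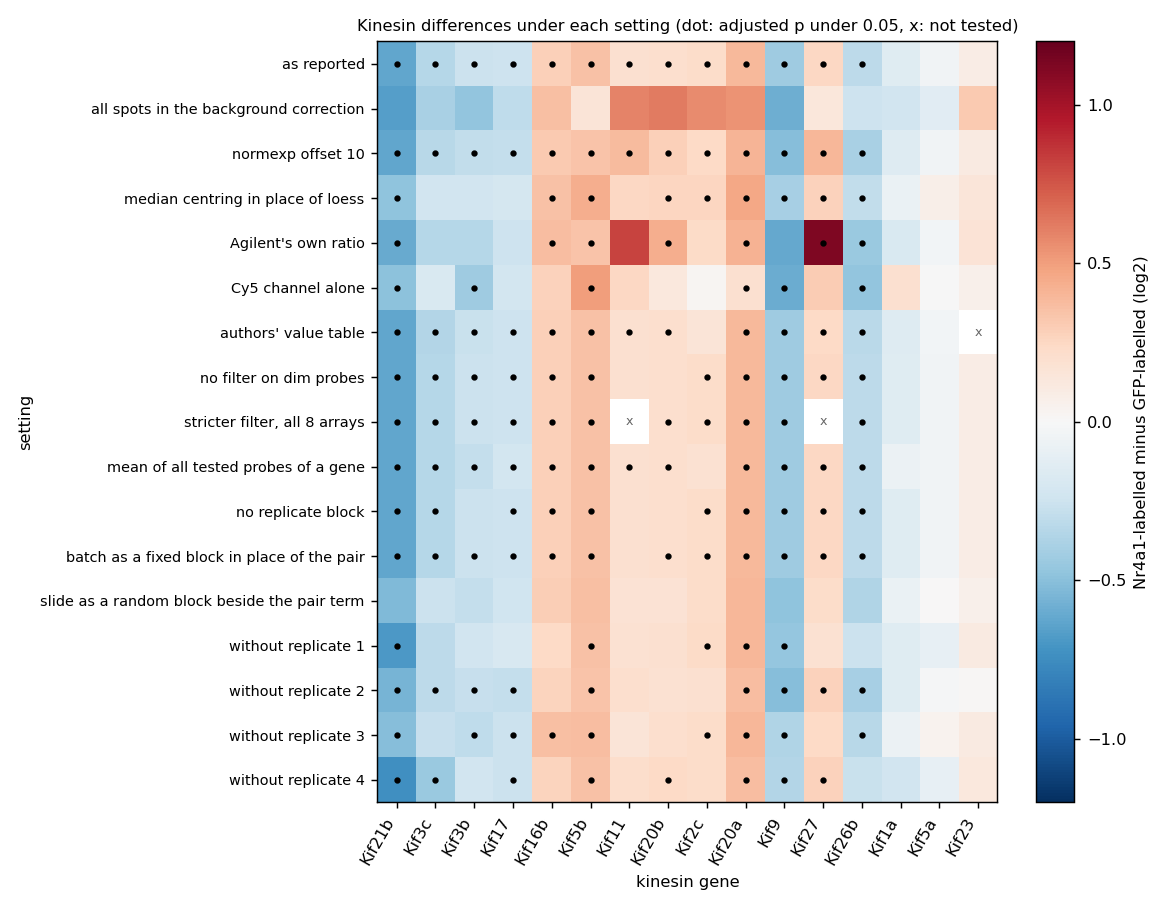
Log2 difference (colour, Nr4a1-labelled minus GFP-labelled) of 16 kinesins (x axis) as reported and under each alternative setting (y axis); a dot marks adjusted p under 0.05 and x a gene not tested in that setting. Among the called kinesins, Kif21b, Kif5b and Kif20a lose their dot in the fewest settings, 2. Those are slide as a random block and all spots in the background correction, where no kinesin has a dot.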

How the data were processed

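Per the file headers, the scanner files came from Agilent Feature Extraction 11.0.1.1 and hold spot intensity values on a linear scale and the software's log10 ratio of Cy5 over Cy3, as deposited. The deposited value table holds log2 ratios of sample over reference. Its scale and direction are unstated and were read from its columns, which correlated at 0.998 to 1.00 with the ratios computed here (medians 0.0240 to 0.0312). The submitters' processing notes also name limma. Each array had 44397 spots for 39429 probes. Median Cy5 intensity was 137 to 194, Cy5 was well above background on 60.9% to 69.2% of spots, with 0 saturated; precision is limited by the number of arrays.

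Median intensities were background-corrected with normexp (offset 50, which shrinks the folds of dim probes) after spots with a non-uniform local background were left out, and normalised by loess within each array with control spots at weight 0. Outlier spots were left out and probes averaged. A RefSeq table (GRCm38.p6) named 26581 probes. A probe was tested with Cy5 well above background on at least 4 of 8 arrays and at least 3 values per group, and the brightest stood for a gene. limma 3.58.1 (R 4.3.3; lmFit and eBayes, two-sided) tested the log2 ratios with the labels' pair as a fixed block, Benjamini-Hochberg adjusted over 21116 features at 0.05. The code was tested on simulated data. Deviations from group means correlated within pairs at -0.10, 0.28, -0.017 and 0.42 (replicates 1 to 4). Summed ratios add the linear sample to reference ratios of a list.

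Values per array are given for called kinesins and for Kif1a, Kif5a, Kif11, Kif20a and Kif23. In each partner list the 4 genes of smallest p are named. Kinesins, lists and roles were chosen with earlier results of these data known. The 16 alternatives changed background correction, normalisation, source of the ratios, filter, probe choice, block, slide or the replicates used.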

Additional observations from a re-analysis of the deposited data

Results flagged for a closer look

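Over 64 groups of 4 arrays (32 kinesins in each label), 7 had an array standing apart from the other 3 by Dixon's ratio at the 95% level; chance gives about 1 in 20. Of the 7, 5 are replicate 4, the whole of batch 2. Kif21b was 1.95 on GFP-labelled replicate 4, where the other 3 were 2.48 to 2.58. Kif3c was 2.40 on the same array, where the others were 2.82 to 2.84. Kif1c was -0.77 there against -0.48 to -0.43, and on Nr4a1-labelled replicate 4 it was -0.51 against -0.36 to -0.33. Kif18b was -1.45 on Nr4a1-labelled replicate 4, with the others at -1.77 to -1.72. Outside replicate 4, Kif21b was 2.06 on Nr4a1-labelled replicate 1 against 1.60 to 1.67, and Kif22 was -2.56 on GFP-labelled replicate 2 against -2.48 to -2.47. Without replicate 4, Kif21b gave -0.74 and Kif3c -0.44, and both passed.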

How the results depend on the processing

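With slide as a random block, limma called 8 features higher and 4 lower (412 and 314 at an unadjusted p under 0.05), and 0 kinesins and 0 partner genes (unadjusted: 0 kinesins, 3 partner genes higher and 1 lower). As no slide held both groups, calls lost in that fit cannot be assigned to slide or to group. Keeping all spots for the background correction gave 130 and 99 features (1764 and 2210 unadjusted), 0 kinesins (2 higher and 5 lower unadjusted) and 1 partner gene higher and 0 lower (11 and 15 unadjusted), with medians of 0.43 for mitotic and -0.0684 for transport kinesins. Agilent's own ratio gave 1510 features higher and 1350 lower, 2 kinesins lower, 2 mitotic higher, 1 transport lower and 6 partner genes lower. Median centring moved the median of all features to 0.06 and the share of rises among calls from 52.7% to 73.3%, with 1262 features, 3 kinesins, 1 transport kinesin and 2 partner genes lower and the Nr4a1 probe past the threshold at 0.40. Cy5 alone gave 4 kinesins higher, 2 mitotic higher and 2 transport lower. Without the filter, 2 mitotic kinesins were higher. With no replicate block, 2 mitotic kinesins were higher, 5 kinesins rose and 5 fell, and 10 of the 13 calls remained, without Kif11, Kif20b and Kif3b. Leaving out 1 replicate gave 1769 to 2598 features higher and 1615 to 2004 lower, 3 to 4 kinesins higher and 2 to 6 lower, 1 to 2 mitotic higher, 1 to 4 transport lower, 13 to 15 partner genes higher and 9 to 13 lower. The transport median was then -0.06 to 0.10, below 0 without replicate 1 (-0.0585) and without replicate 4 (-0.03), and the Nr4a1 probe 0.15 to 0.52, past the threshold without replicate 2. The cause of these shifts was not tested. Dim probes such as those of Kif11 and Kif27 carry the least signal over background.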

Other observations

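Markers of cell types outside the neuron were read on the same arrays. Of 4 microglia markers tested, 0 rose and 1 fell by limma (0 and 1 at an unadjusted p under 0.05), with summed ratios of 2.07 to 2.28 in GFP-labelled and 1.91 to 2.03 in Nr4a1-labelled arrays; Cx3cr1 and P2ry12 were not tested. Of 5 fibroblast markers, 1 rose and 2 fell, with summed ratios of 0.961 to 1.23 and 0.572 to 0.747. Of 6 endothelial and mural markers, 1 rose and 0 fell by limma (1 and 1 at an unadjusted p under 0.05), with 5.5 to 6.16 and 5.22 to 5.74. Over all features, limma called 12.8% higher and 11.5% lower. The fibroblast and oligodendrocyte lineage lists share Pdgfra.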
